A study of Mus musculus with 32 samples.

Results

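The loss of Cdh6 on top of Cdh8 and Cdh11 was examined in the forebrain (Fb) by setting 4 libraries of Cdh6/8/11 triple knockout (TKO_Ex) embryos against 3 libraries of Cdh8/11 double knockout embryos with exencephaly (DKO_Ex). These 7 libraries, of 32 in the series, were chosen by the headings of the value columns. The comparison covered the 13305 genes whose values averaged 1 FPKM or more across them, of 48576 gene identifiers listed. FPKM is a count of sequenced fragments scaled to the length of the gene's exons and to the size of the library. All embryos were B6C3F1, a hybrid mouse strain, at E9.5, and the RNA came from whole dissected Fb tissue. The series also holds midbrain (Mb) tissue, 6 wild-type (WT) libraries for each tissue and 3 libraries for each tissue of a second double knockout group with a cranial defect (DKO_CD). The paper names DKO_CD Cdh8/11, whereas the labels name it Cdh6/8. WT is used here as the range of an unmutated Fb, and in fits against each mutant group for genes that passed.

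Both groups share the loss of Cdh8 and Cdh11 and, by the study's naming, an open brain, and differ by label in Cdh6. The mutations were made by injecting paired CRISPR guides for the 3 genes, so that a short stretch of the exon with the start codon is lost and the frame shifts. Cdh8 and Cdh11 lie on the same chromosome, some of the mated animals carried both mutations on 1 copy of it, and embryos from matings of triple heterozygotes were genotyped from the yolk sac. Since only a short stretch of 1 exon is removed, transcripts can remain, and the FPKM of a whole gene does not test the deletion itself. The labels do not state that the libraries of a group came from separate embryos, so p-values measure the spread between these libraries, which may in part be technical.

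Type II cadherins are calcium-dependent adhesion proteins whose extracellular domains bind like or related cadherins on a neighbouring cell, and whose cytoplasmic tails bind catenins and through them actin. Different members mark different territories of the neural plate, where they contribute to cell sorting and to the cohesion of the epithelium while the folds rise and fuse. Exencephaly is the failure of the cranial folds to close, which leaves the brain open.

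The start of each coding sequence is shown because the exon that holds it is the one the guides cut. In the GENCODE M21 annotation of GRCm38 all 3 genes lie on the minus strand. The start codon of Cdh6 (chromosome 15) is in exon 2 of 12, at 13091650 to 13092010, which is 361 bases of a transcript of 8167. That of Cdh8 (chromosome 8) is in exon 2 of 12, at 99400726 to 99401177, which is 452 bases of 4594. That of Cdh11 (chromosome 8) is in exon 3 of 13, at 102679612 to 102680011, which is 400 bases of 5647. The first 30 coding bases, with the start codon in capitals, read 5′ to 3′ as follows.
Cdh6: ATGagaacttaccggtacttcttgctgctc
Cdh8: ATGccagaaaggctagctgagacgctcatg
Cdh11: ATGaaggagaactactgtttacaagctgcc

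The files hold no counts, and the depth was estimated from the spacing of low values. It was 2.12 to 3.34 M fragments in TKO_Ex Fb (median 2.46), 2.42 to 2.87 M in DKO_Ex Fb (median 2.72) and 2.05 to 3.4 M over all 32 libraries. At this depth a gene of low FPKM rests on few fragments. For all 12 DKO libraries the heading of the values contradicts the GEO record: DKO_Ex headings stand under DKO_CD records and the reverse. The headings were followed. Signs, main counts and list medians that turn under the grouping by record are named with the results or in the closing section. DKO_Ex replicate 1 and TKO_Ex replicate 4 carried the Y-linked Ddx3y at 10.04 and 12.2 FPKM with Xist at 0.252 and 0.102 FPKM, and the other 5 libraries had Xist at 70.2 to 118 FPKM, so both groups held libraries of both sexes. In bulk tissue, fewer cells of a type and less RNA per cell cannot be told apart.

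Cdh6, the cadherin targeted in TKO_Ex alone, was lower in 3 of the 4 TKO_Ex libraries than in any DKO_Ex library. It was at 3.62, 3.72 and 4.34 FPKM in DKO_Ex and at 1.84, 0.766, 3.74 and 0.572 FPKM in TKO_Ex (replicates 1 to 4), on an estimated 89 to 93 fragments in DKO_Ex and 11 to 70 in TKO_Ex. The library labelled TKO_Ex replicate 3 thus lay among the DKO_Ex libraries and the WT range of 2.04 to 3.997 FPKM. The means were 3.90 ± 0.392 FPKM (SD, n = 3) in DKO_Ex and 1.73 ± 1.45 FPKM (SD, n = 4) in TKO_Ex. On the log2(FPKM + 1) scale the difference was −0.98 ± 0.39 (SE), which did not pass over all genes (limma, adjusted p = 0.944), with p = 0.171 in the two-sided exact permutation test over the 7 libraries. Without TKO_Ex replicate 3 the difference was −1.30, and over all libraries left out in turn it ran from −1.30 to −0.76.

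The same number stood apart in the Mb, where Cdh6 was at 0.388, 0.353, 3.10 and 0.345 FPKM in TKO_Ex and at 3.12, 2.47 and 1.86 FPKM in DKO_Ex. TKO_Ex replicate 3 also differed in Gm26825, a long non-coding RNA on chromosome 5 that was noticed after its values were seen. It was at 8.24 FPKM in the Fb and 8.36 in the Mb of TKO_Ex replicate 3, at 7.92 to 22.1 in WT, and at 0.464 or less in all other mutant libraries. The genotype of replicate 3 was not tested beyond this, and the counts of genes that passed are given with and without it.

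**Figure D1:**
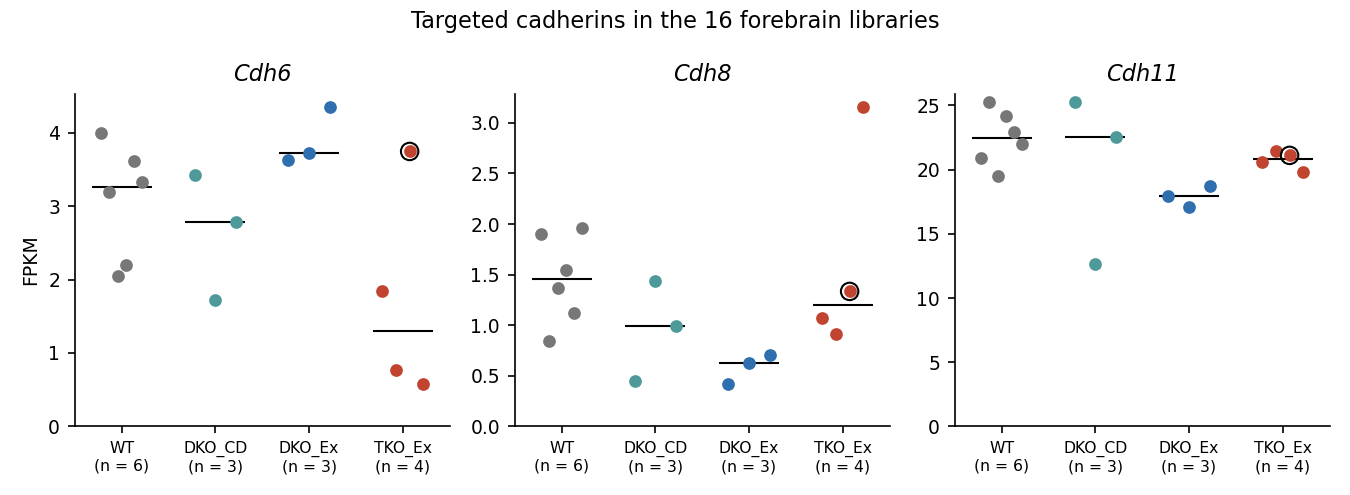
FPKM (linear axes) of Cdh6, Cdh8 and Cdh11 in the 16 Fb libraries by group, with the median of each group as a line and TKO_Ex replicate 3 ringed in black. Cdh6 is at 0.572 to 1.84 FPKM in 3 TKO_Ex libraries and at 3.74 in the ringed one, while Cdh11 is at 17.1 to 18.7 in DKO_Ex and 19.8 to 21.4 in TKO_Ex.

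Cdh8 and Cdh11, which are targeted in both groups, were still read at measurable levels. Cdh8 was at 0.423, 0.626 and 0.702 FPKM in DKO_Ex and at 1.07, 0.911, 1.33 and 3.15 FPKM in TKO_Ex, beside 0.840 to 1.96 in WT. Cdh11 was at 17.9, 17.1 and 18.7 FPKM in DKO_Ex and at 20.6, 21.4, 21.1 and 19.8 in TKO_Ex, beside 19.5 to 25.3 in WT. For both genes every TKO_Ex library lay above every DKO_Ex library, yet neither difference passed. They were 0.66 ± 0.33 (SE) for Cdh8 and 0.20 ± 0.11 (SE) for Cdh11 on the log2 scale (limma, adjusted p = 0.944 for each), and p = 0.0571 in the exact permutation test is the smallest that 4 against 3 libraries allow, so that test cannot reach 0.05. 6 of the 13 type II cadherins were expressed above the filter, and besides the targeted genes these were Cdh5, the cadherin of endothelium, Cdh20 and Cdh24. Their differences were 0.12, −0.03 and −0.19.

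Among classical type I cadherins, Cdh2 (N-cadherin), the main cadherin of the neuroepithelium, was at 58.6, 64.5 and 62.9 FPKM in DKO_Ex and 73.5, 66.1, 69.4 and 50.6 in TKO_Ex, with overlapping groups and a difference of 0.05 (limma, adjusted p = 0.989). Its sign turned under another setting, as given in the closing section. Cdh1 (E-cadherin), the cadherin of surface ectoderm, was at 5.49, 12.2 and 5.48 FPKM in DKO_Ex and 7.64, 7.45, 15.2 and 14.3 in TKO_Ex, and did not pass either (0.50, adjusted p = 0.944). Fgf15, a growth factor of the dorsal brain that the study followed in the Mb, was at 22.4, 28.01 and 17.3 FPKM in DKO_Ex Fb and 22.3, 24.8, 16.3 and 12.7 in TKO_Ex Fb, with overlapping groups and a difference of −0.25 (adjusted p = 0.957), whose sign turned under the grouping by record.

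4 of 13305 genes passed the threshold of adjusted p under 0.05 (limma, Benjamini-Hochberg), which is 0.0301% of those tested. The genes were Ece1, Fam107b and Gm23547, which rose in TKO_Ex, and Rec8, which fell. None is a cadherin and none stands in any of the 34 gene lists considered, of which 483 members were tested. At an unadjusted p under 0.05 there were 674 genes (5.07%), 451 higher in TKO_Ex (3.39%) and 223 lower (1.68%). The groups did not overlap at 822 genes (6.18%), with TKO_Ex above at 566 (4.25%) and below at 256 (1.92%). Without TKO_Ex replicate 3, 2 genes passed and 650 of 13311 (4.88%) had an unadjusted p under 0.05. The groups then did not overlap at 1368 of 13305 genes (10.3%), with TKO_Ex above at 940 (7.07%) and below at 428 (3.22%). Leaving out any library can only keep or raise the count without overlap. The 822 and 1368 genes therefore cannot be compared as a measure of separation. The lean towards higher values depended on the scaling and on the grouping. It became 251 higher and 317 lower under the grouping by record, 344 higher and 322 lower with median-of-ratios scaling and 345 higher and 337 lower with quantile normalization. The median difference of all genes was 0.04 on the log2 scale.

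**Figure D2:**
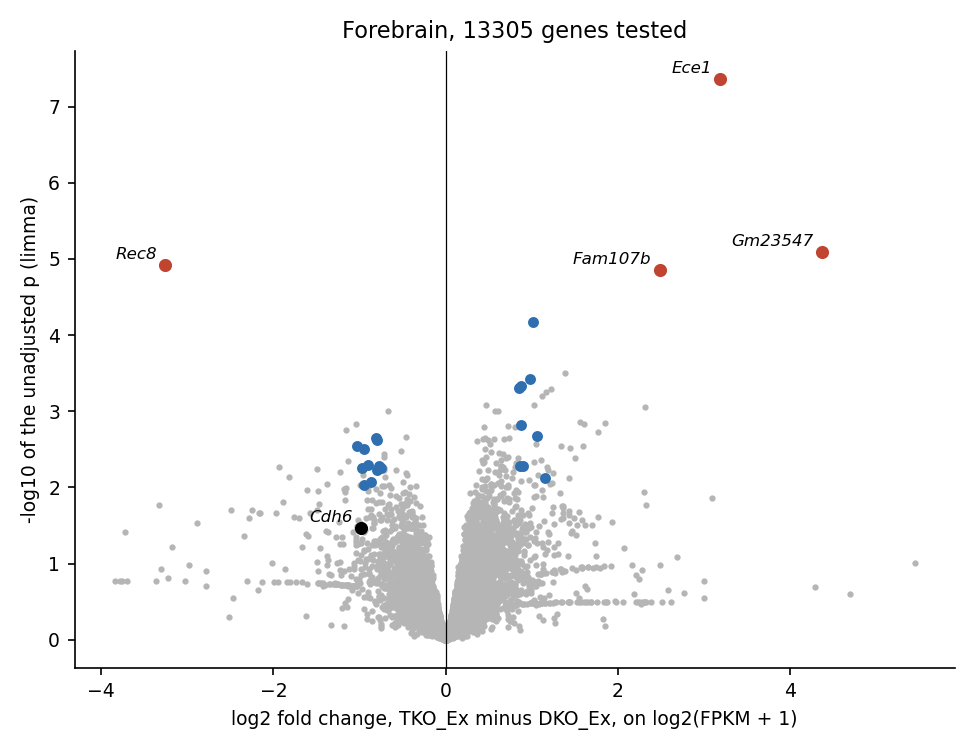
The log2(FPKM + 1) difference, TKO_Ex minus DKO_Ex in the Fb (x axis), against −log10 of the unadjusted limma p (y axis) for 13305 genes. The 4 genes that passed are red, the 20 leading genes that did not are blue, and Cdh6 is black at −0.98.

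Ece1 (chromosome 4, 137862237 to 137965229, plus strand) encodes endothelin-converting enzyme, which cleaves the endothelin precursors to the active peptides. It was at 12.2, 15.996 and 11.5 FPKM in DKO_Ex and at 144, 103, 143 and 125 FPKM in TKO_Ex, so the groups lay far apart. The means were 13.3 ± 2.40 (SD, n = 3) and 129 ± 19.4 (SD, n = 4), and the log2 difference was 3.19 ± 0.16 (SE, limma, adjusted p = 0.000576). The WT libraries also split, from 10.8 to 119 FPKM, with 3 of 6 at the high level. Over the series, 13 of 32 libraries were above 50 FPKM, and no library lay between 16.6 and 83.8. In the Mb 1 of 4 TKO_Ex and 1 of 3 DKO_Ex libraries were high, and in DKO_CD 1 of 3 in each tissue. High and low levels of Ece1 thus occurred in every group of libraries except DKO_Ex Fb, where all were low, and TKO_Ex Fb, where all were high.

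Fam107b (chromosome 2, 3570488 to 3782142, plus strand) belongs to a small family of actin-associated proteins. It was at 14.2, 10.4 and 14.7 FPKM in DKO_Ex and at 77.8, 94.1, 46.8 and 103 FPKM in TKO_Ex. WT Fb ranged from 12.3 to 22.7 FPKM, so every TKO_Ex library was above every WT and DKO_Ex library. The means were 13.1 ± 2.38 (SD, n = 3) and 80.5 ± 24.8 (SD, n = 4), with a log2 difference of 2.48 ± 0.27 (SE, adjusted p = 0.0470). Beside this, TKO_Ex minus WT was 2.29 (limma, adjusted p = 0.00763) and DKO_Ex minus WT was −0.19 (adjusted p = 0.890) in fits that share the WT libraries. The TKO_Ex values are those by which Fam107b was chosen. Of the 32 libraries 7 were above 30 FPKM, and the 3 outside TKO_Ex Fb were 1 DKO_CD Fb library at 71.8, 1 TKO_Ex Mb library at 31.4 and 1 WT Mb library at 90.2 FPKM.

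Rec8 (chromosome 14, 55618037 to 55625395, plus strand) encodes a cohesin subunit known from meiosis. It was at 6.91, 10.3 and 20.6 FPKM in DKO_Ex and at 0.603, 0.189, 0.244 and 0.236 FPKM in TKO_Ex, on an estimated 54 to 137 fragments in DKO_Ex and 1 to 6 in TKO_Ex. The groups did not overlap, with a log2 difference of −3.25 ± 0.34 (SE, limma, adjusted p = 0.0470). WT, at 0 to 3.33 FPKM, was nearer to TKO_Ex. So were the DKO_CD Fb libraries, which are DKO_Ex by record, at 0.386, 2.13 and 0 FPKM. In the Mb the order did not hold, with 18.3, 0.218, 0 and 0.213 FPKM in TKO_Ex and 1.23, 9.16 and 3.03 in DKO_Ex.

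Gm23547 (chromosome 6, 124715232 to 124715502, plus strand) is a small nucleolar RNA gene inside Phb2, which is transcribed from the same strand. It was listed at 0 in all 3 DKO_Ex libraries and at 30.7, 9.55, 13.2 and 36.8 FPKM in TKO_Ex (adjusted p = 0.0470). These values come from an estimated 3 to 10 fragments, since the gene is short, and reads of Phb2 can be assigned to it. In WT it ranged from 0 to 25.9 FPKM.

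Without TKO_Ex replicate 3, Ece1 (3.13, adjusted p = 0.00598) and Fam107b (2.72, adjusted p = 0.00727) still passed, whereas Rec8 (−3.23, adjusted p = 0.208) and Gm23547 (adjusted p = 0.107) did not. Under the grouping by record, no gene passed. In the fits against WT, the genes other than Fam107b did not reach the threshold. TKO_Ex minus WT was 1.65 for Ece1 (limma, adjusted p = 0.546) and 2.93 for Gm23547 (adjusted p = 0.445). DKO_Ex minus WT was 3.18 for Rec8 (limma, adjusted p = 0.0661). In the exact permutation test each of the 4 genes had p = 0.0571, the smallest possible.

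**Figure D3:**
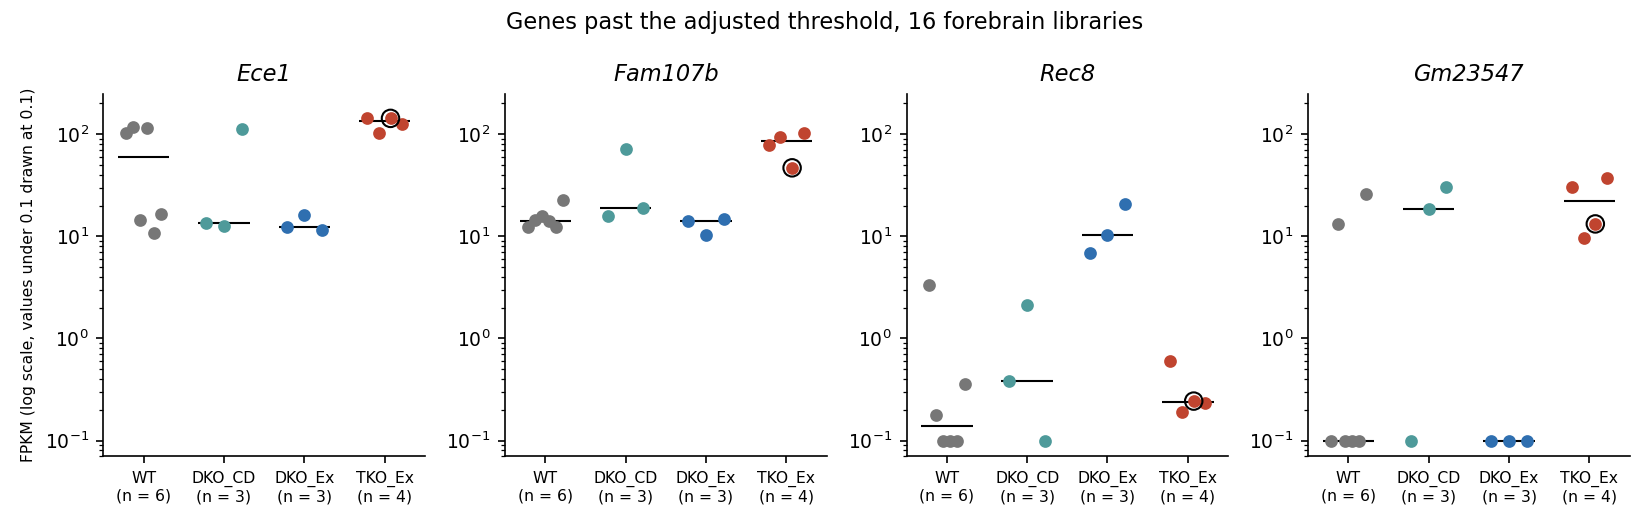
FPKM on a log axis of the 4 genes that passed, in the 16 Fb libraries by group, with values under 0.1 drawn at 0.1. The TKO_Ex libraries are at 103 to 144 FPKM for Ece1 and 46.8 to 103 for Fam107b, and the DKO_Ex libraries are above all TKO_Ex libraries for Rec8 alone.

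Below the threshold, protein-coding genes were named where the unadjusted p was under 0.01, the groups did not overlap and the higher group was at 5 FPKM or more in every library. 53 genes met this with higher and 25 with lower values in TKO_Ex, and the largest differences gave 9 higher genes (0.85 to 1.16) and 11 lower genes (−1.03 to −0.75), with adjusted p of 0.179 to 0.944. None passed, and they were chosen by this contrast, so that their separation is a description. In the Mb their differences ran from −0.77 to 0.91, and 1 of the 20, Hist1h2bl, had an unadjusted p under 0.05, in the direction opposite to the Fb (0.91 in the Mb and −0.95 in the Fb), against 997 of 13360 genes in the Mb (7.46%). Under the grouping by record, differences of Sin3a, Pld3 and Hps1 turned sign.

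Several of the higher genes are known from the regional patterning of the brain. Irx1, an Iroquois homeobox factor, was at 3.59, 5.23 and 7.24 FPKM in DKO_Ex and 10.99, 8.26, 13.1 and 22.1 in TKO_Ex, with a difference of 1.16 ± 0.33 (SE). Fzd10, a Wnt receptor, was at 3.10, 3.55 and 4.53 FPKM in DKO_Ex and 7.41, 7.15, 8.26 and 13.6 in TKO_Ex (1.07 ± 0.24, SE). Sp5, a zinc-finger factor that is a direct target of Wnt signalling, was at 4.50, 4.21 and 6.32 FPKM in DKO_Ex and 7.88, 7.72, 12.7 and 11.8 in TKO_Ex (0.86 ± 0.23, SE). In all 3 genes every TKO_Ex library was also above the highest WT library. Notch1, the receptor that keeps neural progenitors undifferentiated, was at 6.05, 6.22 and 7.41 FPKM in DKO_Ex and 10.3, 9.49, 16.2 and 17.9 in TKO_Ex (0.90 ± 0.24, SE), and the WT range of 6.08 to 14.5 overlapped both groups.

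The other higher genes have general functions. Tm9sf4, a transmembrane protein of the endosomal system, had the smallest adjusted p of the genes that did not pass (0.179). It was at 12.6, 16.9 and 13.8 FPKM in DKO_Ex and 32.7, 27.3, 30.7 and 29.2 in TKO_Ex, and the WT libraries covered both levels, from 12.4 to 34.96. Sin3a, the scaffold of a histone deacetylase complex, was at 20.3, 25.6 and 27.5 FPKM in DKO_Ex and 53.7, 46.6, 43.0 and 38.6 in TKO_Ex. Acot8, a peroxisomal thioesterase whose gene overlaps Snx21 on the opposite strand, Pld3, a lysosomal nuclease, and Tdrkh, a tudor protein of the piRNA pathway, differed by 0.98, 0.85 and 0.87.

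Among the lower genes, Tex264, a receptor for autophagy of the endoplasmic reticulum, was at 16.4, 12.4 and 12.1 FPKM in DKO_Ex and 8.20, 5.65, 3.86 and 7.58 in TKO_Ex (−1.03 ± 0.24, SE). Sugp2, a protein with a splicing-factor motif, was at 19.7, 19.5 and 14.5 FPKM in DKO_Ex and 11.5, 10.03, 7.28 and 10.4 in TKO_Ex. Hps1, which acts in the making of lysosome-related organelles, was at 13.1, 7.94 and 16.9 FPKM in DKO_Ex and 3.83, 6.19, 7.43 and 6.30 in TKO_Ex. In these 3 genes every DKO_Ex library was above the WT range. Gng12, a G-protein gamma subunit, Haus7, a subunit of the augmin complex of the spindle, and Mdn1, an ATPase of ribosome assembly, differed by −0.97, −0.90 and −0.87. Hist1h2bl (−0.95) is 1 of many near-identical histone genes, between which reads may be split. The remaining genes were Smim14 (−0.80), 4930524J08Rik (−0.79), the vitamin transporter Slc5a6 (−0.78) and the corepressor Cir1 (−0.75). The WT range held both group means at 8 of the 24 genes that passed or led, which were chosen for a difference, and at 69.2% of all genes.

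The gene lists are described by their counts beside all genes, of which 3.39% were higher and 1.68% lower at an unadjusted p under 0.05, and no member of any list passed the adjusted threshold. A positive difference was found at 56.5% of all genes tested. Under the grouping by record the median of all genes was −0.02, the medians of 19 of 32 lists had the opposite sign, and Ctnna1, Pard3, Nrarp, Vim, Ebf3 and Plk1 turned sign. Besides the medians given by record below, those of apical constriction, planar cell polarity, delta protocadherins and dorsoventral factors turned. So did those of the hedgehog, Bmp, Hippo, ephrin, folate and imprinted growth lists. Of the 10 cadherin and catenin genes of type I that were tested, 2 were higher at this level, 9 had a positive difference and the median was 0.25. No member was at this level without replicate 3 (median 0.17) or without replicate 4, and the median was −0.02 by record. The 2 genes were Cdh3 (P-cadherin), with a difference of 0.78, and Ctnna1 (alpha-catenin, which links cadherins to actin). Cdh3 was at 1.82, 4.43 and 2.28 FPKM in DKO_Ex and 4.89, 3.42, 6.32 and 7.43 in TKO_Ex, with overlapping groups. It lies within 10 Mb of Cdh11 and is also counted in that window below. Ctnna1 was at 63.0, 69.1 and 74.6 FPKM in DKO_Ex and 81.2, 77.9, 81.3 and 83.7 in TKO_Ex, a difference of 0.23 without overlap. Of 18 genes of the apical junction 1 was higher, Pard3, a polarity protein (0.53), and of 20 genes of apical constriction and actomyosin none was. Of 16 genes of planar cell polarity 1 was higher, the atypical cadherin Celsr1, at 3.03, 2.995 and 3.04 FPKM in DKO_Ex and 4.86, 4.42, 4.81 and 4.74 in TKO_Ex (0.51). Among 6 delta protocadherins Pcdh9 was lower (−0.74), though not at this level without replicate 3.

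The identity of the tissue was checked with regional factors. Lhx2, a factor of the forebrain and eye field, was at 80.5, 78.9 and 80.0 FPKM in DKO_Ex and 98.0, 77.9, 49.4 and 28.9 in TKO_Ex. It is named after its values were seen. TKO_Ex replicates 1 and 2 lay near the DKO_Ex libraries, and replicates 3 and 4 were lower, below the WT minimum of 53.2. The group difference was −0.46 (limma, adjusted p = 0.950). In the whole list of 32 forebrain and eye-field factors, which includes Irx1 and Otx1, replicates 3 and 4 were again the lowest of TKO_Ex. Its summed level was 644, 615, 531 and 552 FPKM in TKO_Ex replicates 1 to 4. It was 506 to 623 FPKM in DKO_Ex and 451 to 576 in WT, so replicates 3 and 4, unlike for Lhx2, lay inside both ranges. The same replicates 3 and 4 had the highest TKO_Ex values of Irx1, Fzd10, Sp5, Notch1 and Fgfr2. Mb libraries held Irx1 at 34.4 to 60.6 FPKM and Fzd10 at 28.7 to 60.9, above all Fb libraries. Sp5 was at 11.8 to 26.1 FPKM in WT Mb beside 3.94 to 7.06 in WT Fb. Fgfr2 was at 33.4 to 80.2 FPKM in WT Mb beside 18.2 to 40.3 in WT Fb. En1, a marker of the Mb, was at 0.461 FPKM or less in TKO_Ex Fb, and at 0, 0 and 2.09 in DKO_Ex Fb. Among the Mb libraries En1 was lowest in WT replicate 5, at 3.57 FPKM beside 60.6 of Irx1. DKO_CD Fb replicate 2 had like values, with 30.4 FPKM of Lhx2, 24.2 of Irx1 and 14.3 of Fzd10. The part of the dissection in these differences was not tested.

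Of 28 forebrain and eye-field factors tested, 3 were higher at an unadjusted p under 0.05 and none was lower, with a median of −0.10, which was 0.01 without replicate 3 and 0.05 without replicate 4, and 0.09 by record. Besides Irx1 these were Otx1, at 31.9, 22.2 and 31.7 FPKM in DKO_Ex and 41.3, 35.8, 41.6 and 57.3 in TKO_Ex (0.60), and Sim2, a factor of the ventral diencephalon (0.63). Sim2 was not at this level without replicate 3. Irx1 was higher in the Mb than in any Fb library, and Otx1 was at 22.2 to 52.2 FPKM in WT Mb beside 23.1 to 33.5 in WT Fb. Neither Irx1 nor Otx1 thus marked the Fb against the Mb in these libraries. Of 11 midbrain and isthmus factors 1 was higher, Lmx1b (0.71), which was not at this level without replicate 4, and none of 11 hindbrain and spinal cord factors reached the filter. Of 17 dorsoventral factors 1 was higher, the floor plate factor Foxa2 (0.61), and 1 lower, Nkx2-2. Only 1 of them was still at this level without replicate 3, and 1 without replicate 4. Nkx2-2, which is induced by Shh next to the floor plate, was at 11.8, 11.8 and 2.93 FPKM in DKO_Ex and 3.86, 1.76, 1.51 and 1.75 in TKO_Ex, with overlapping groups.

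**Figure D4:**
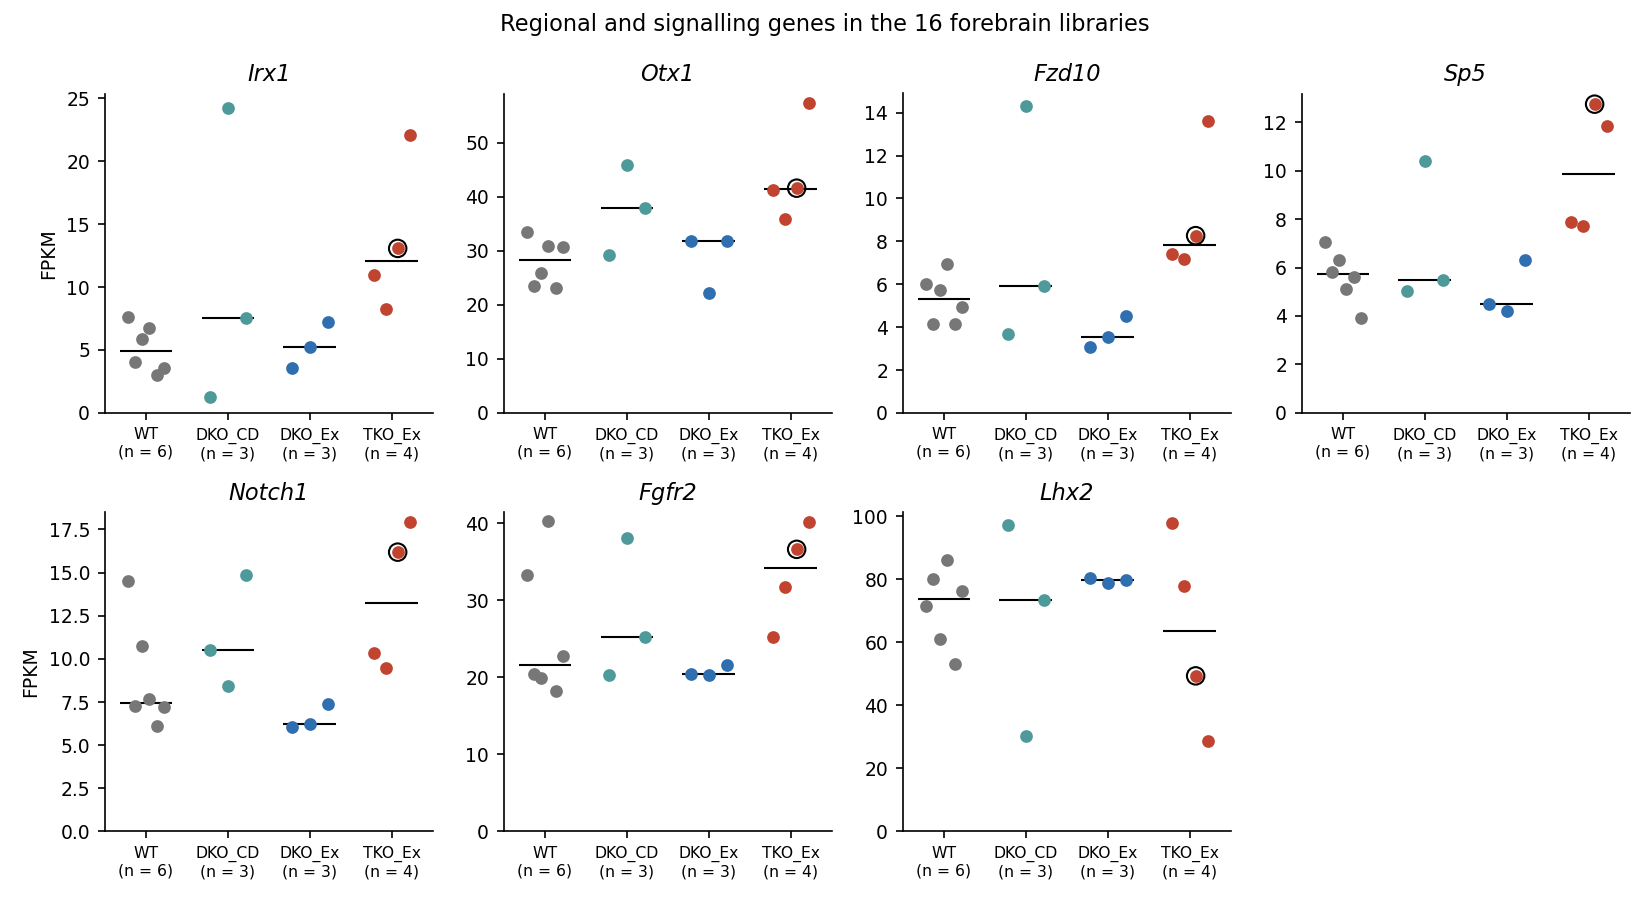
FPKM of Irx1, Otx1, Fzd10, Sp5, Notch1, Fgfr2 and Lhx2 in the 16 Fb libraries by group, with the group median as a line and TKO_Ex replicate 3 ringed. TKO_Ex replicates 3 and 4 are lowest of their group for Lhx2 (49.4 and 28.9) and highest for Irx1 (13.1 and 22.1).

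Wnt ligands pattern the dorsal midline and drive proliferation through beta-catenin. Of 22 Wnt ligands and targets tested, 5 were higher at an unadjusted p under 0.05 (22.7%, against 3.39% of all genes) and none lower. Fzd10 and Sp5 are given above, and both were higher in every WT Mb library than in any WT Fb library. The part of the dissection in this count was not tested. Sfrp2, a secreted Wnt antagonist, was at 41.1, 46.0 and 46.8 FPKM in DKO_Ex and 63.0, 48.5, 56.4 and 66.7 in TKO_Ex (0.38). Wnt1 itself was at 0.813, 0.695 and 2.73 FPKM in DKO_Ex and 1.92, 3.09, 4.42 and 3.85 in TKO_Ex (0.90), and Lef1, a transcription factor of the pathway, at 7.76, 11.9 and 23.9 FPKM in DKO_Ex and 33.8, 26.8, 14.4 and 45.7 in TKO_Ex (1.03), both with overlapping groups. The common target Axin2 differed by 0.09. The list median was 0.13 in the Fb and −0.10 in the Mb, and of the 5 members 4 were still at this level without replicate 3 and 3 without replicate 4.

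Of 17 genes of the Notch pathway 3 were higher (17.6%) and none lower, with a median of 0.17. Besides Notch1 these were Hes3, a repressor of neurogenesis (0.73), and Nrarp, a feedback target of Notch, at 2.37, 2.53 and 2.31 FPKM in DKO_Ex and 3.88, 3.91, 3.22 and 3.51 in TKO_Ex (0.44). Hes1 and Hes5, the main effectors in progenitors, differed by −0.02 and 0.24. Without replicate 4, 1 of the 3, Notch1, was still at this level, and the list median was −0.07 by record. Of 20 Fgf ligands, feedback genes and targets, Fgfr2 alone was higher, at 20.5, 20.3 and 21.7 FPKM in DKO_Ex and 25.3, 31.7, 36.6 and 40.2 in TKO_Ex (0.64 ± 0.16, SE, adjusted p = 0.894), and the list median was −0.13. The 13 hedgehog genes shared Foxa2 and Nkx2-2 with the dorsoventral list and had a median of 0.05. Among 16 Bmp genes and 10 retinoic acid genes none had an unadjusted p under 0.05, with medians of 0.01 and 0.16.

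Progenitor and neuronal genes showed few differences. Of 15 neural progenitor genes, Notch1 and the filament gene Vim (0.46) were higher, and Sox2, a factor of the neuroepithelium, differed by −0.05. Vim did not have an unadjusted p under 0.05 (limma) without replicate 4. Of 13 proneural and early neuronal genes 1 was higher, the neuronal factor Ebf3 (0.68). Ebf3 was not at this level without replicate 4. The median of this list was 0.36, −0.19 by record, and 0.12 without replicate 4, in which the proneural factor Neurog1 was at 13.4 FPKM beside at most 3.66 in the other 6 libraries. Of 30 cell cycle genes 3 were higher and 22 positive, with a median of 0.08 (−0.08 by record). They were the replication helicase subunits Mcm4 and Mcm3 and the mitotic kinase Plk1. Mcm4 was at 71.7, 69.997 and 75.4 FPKM in DKO_Ex and 84.4, 89.3, 89.7 and 89.6 in TKO_Ex, a difference of 0.28 without overlap. Without replicate 3, 1 of the 3, Mcm4, still had an unadjusted p under 0.05.

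Markers of the other tissues in a dissected head were followed as well. All 12 surface ectoderm genes tested had a positive difference, with a median of 0.27, which was 0.17 without replicate 3 and 0.04 without replicate 4. Their summed level was 155, 243 and 137 FPKM in DKO_Ex, 144, 145, 268 and 354 in TKO_Ex and 97.9 to 171 in WT. The 2 TKO_Ex libraries with the most surface ectoderm RNA, replicates 3 and 4, were those with the least Lhx2. In DKO_Ex, replicate 2 had the most (243 FPKM), with Lhx2 at 78.9 FPKM beside 80.5 and 80.0 in replicates 1 and 3. 1 member, the ectodermal ligand Wnt6 (0.83), had an unadjusted p under 0.05, and no member had without replicate 3 or without replicate 4. None of 9 neural crest, 18 cranial mesenchyme, 15 endothelium and 14 primitive red cell genes did. Their medians were −0.09, 0.03, −0.15 and 0.32 (0.05, −0.13, 0.02 and −0.15 by record), and the summed levels overlapped, with 520 to 633 FPKM of neural crest genes in DKO_Ex and 500 to 599 in TKO_Ex and 4191 to 16543 FPKM of red cell genes in DKO_Ex and 5882 to 11011 in TKO_Ex. The part of these tissues in the results above was not tested.

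Of 21 genes of hypoxia and glycolysis 2 were lower, the stress-induced mTORC1 inhibitor Ddit4 (−0.66) and the glycolytic enzyme Pgam1, at 585, 581 and 604 FPKM in DKO_Ex and 493, 508, 518 and 543 in TKO_Ex (−0.20). Neither was at this level without replicate 3. The lists of Hippo targets (12 tested), folate and one-carbon metabolism (16), imprinted growth genes (17) and mitochondrially encoded genes (13) had 1 higher member each. These were the matrix protein gene Ccn2 (0.46), the methionine synthase gene Mtr (0.49), the paternally expressed Mest (0.25) and mt-Atp8 (0.48), of which mt-Atp8 was not at this level without replicate 3 or without replicate 4. Mest was at 602, 668 and 699 FPKM in DKO_Ex and 798, 762, 778 and 774 in TKO_Ex. No gene of p53 and apoptosis (15), basement membrane (14), immediate early response (13) or ephrins and Eph receptors (17) had an unadjusted p under 0.05, with medians of −0.003, 0.06, −0.08 and 0.01.

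**Figure D5:**
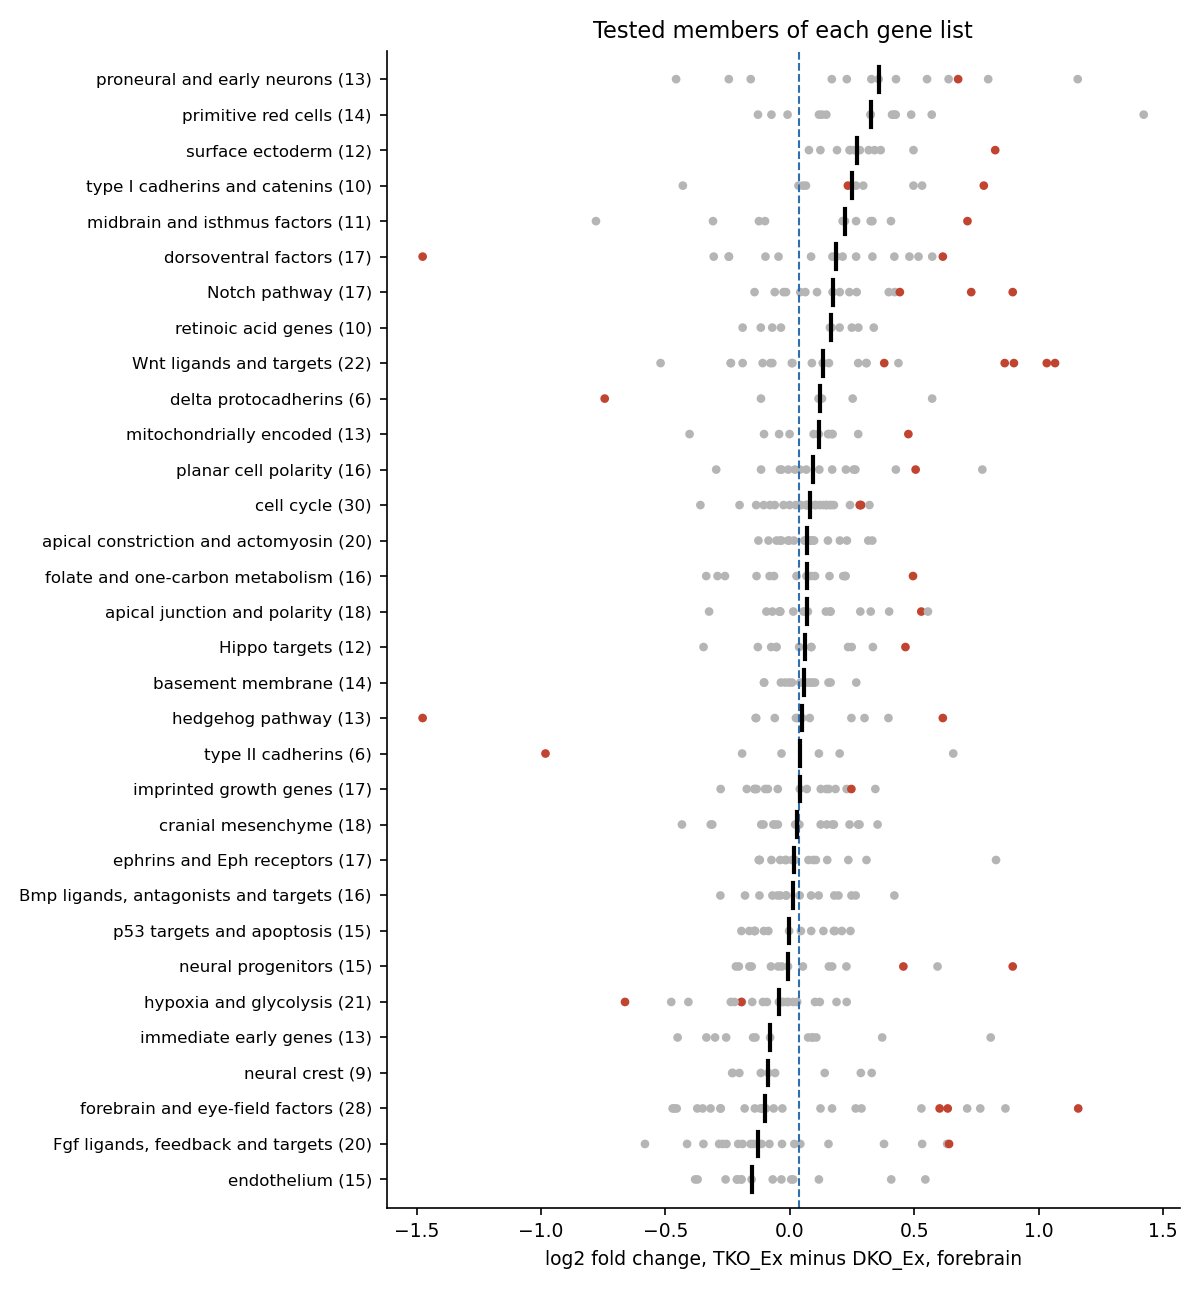
The log2(FPKM + 1) difference, TKO_Ex minus DKO_Ex in the Fb, of the tested members of each list (points, red at an unadjusted p under 0.05), with the list median as a black bar and the median of all genes (0.04) as a dashed blue line. The Wnt list holds 5 red points of 22 and the Notch list 3 of 17, all on the higher side.

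The neighbourhood of the targeted genes was examined because an edited chromosome is inherited with its flanks. Within 10 Mb of Cdh6, 38 of 132 genes were tested. Apart from Cdh6, only the pseudogene Hnrnpa1l2-ps2 had an unadjusted p under 0.05, at 16.2, 15.2 and 21.1 FPKM in DKO_Ex and 22.2, 29.5, 33.5 and 31.7 in TKO_Ex (0.70), and the median was −0.01. Drosha, whose gene lies next to Cdh6, differed by 0.25. No gene of the window other than Cdh6 reached this level within 5 Mb (22 tested), and 20 Mb (57 tested) added none. Within 10 Mb of Cdh8 or Cdh11, which are mutated in both groups, 170 of 495 genes were tested, 6 were higher and 1 lower at this level, with a median of 0.07. The metallothionein gene Mt3 was the lower one, at 3.17, 9.31 and 5.36 FPKM in DKO_Ex and 1.95, 1.79, 0 and 0 in TKO_Ex, without overlap.

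The same contrast in the Mb called 17 of 13360 genes (0.127%), 16 higher and 1 lower, of which 14 were pseudogenes, and no gene passed in both tissues. At an unadjusted p under 0.05 there were 560 higher genes (4.19%) and 437 lower genes (3.27%) in the Mb. The difference between the tissues was tested as an interaction over 14 libraries, where 2 of 13427 genes passed (0.0149%) and 743 had an unadjusted p under 0.05 (5.53%). The difference was more positive in the Mb at 282 of these genes (2.1%) and more negative at 461 (3.43%). This fit takes the Fb and Mb libraries as independent. In all 16 numbers of the series the Fb and the Mb library had the same one of Xist and Ddx3y higher, and with the libraries of one group and number taken as 1 embryo 0 genes passed (limma), with 899 at an unadjusted p under 0.05. Both, Gm17538 and Gm20302, are processed pseudogenes listed at 0 in all 7 Fb libraries. Gm17538 was at 6.66, 5.80, 7.36 and 11.4 FPKM in TKO_Ex Mb and listed at 0 in DKO_Ex Mb, and Gm20302 at 7.02, 8.70 and 7.02 FPKM in DKO_Ex Mb and listed at 0 in TKO_Ex Mb. For the 4 genes that passed in the Fb, the Mb differences were −0.61 for Ece1, 0.21 for Fam107b and −0.96 for Rec8, and Gm23547 was at 0 to 13.1 FPKM in TKO_Ex Mb and 0 to 14.8 in DKO_Ex Mb. The interaction did not pass for any of them (adjusted p = 0.722 to 0.920). Cdh6 differed by −0.94 in the Mb, against −0.98 in the Fb (adjusted p of the interaction = 0.996).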

How the data were processed

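RNA of Fb and Mb tissue was sequenced from directional libraries. The authors deposited FPKM per gene for each library, and the submitters' processing notes name TopHat2, Cufflinks, HTSeq, DESeq2 and GRCm38 (mm10). Tool versions are not given in the sources used here. The deposited FPKM are already normalized to gene length and to the mapped fragments. Read counts were not used here, so the DESeq2 test was not repeated.

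Values were assigned to samples by column headings. For 65 identifiers listed more than once the FPKM were added, and 48218 of 48576 identifiers were found in GENCODE M21. The depth, 2.12 to 3.34 M fragments in the 7 libraries, was estimated from 771 genes with transcripts of at least 4000 bp, assuming a fragment of 200 bp. In all 32 libraries 79.3% to 86.3% of their low values were whole fragments within 0.1, which was too few to recover counts. Fragment numbers are therefore estimates.

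The 4 TKO_Ex and 3 DKO_Ex Fb libraries were compared with limma 3.58.1 in R 4.3.3 (lmFit, eBayes with a trend) on log2(FPKM + 1), for genes that averaged 1 FPKM or more and without further scaling. Fold changes on this scale understate the change of low genes. The threshold was a Benjamini-Hochberg adjusted p of 0.05 over all genes, and unadjusted p below it are descriptions. Single genes were also tested by the two-sided exact permutation test (SciPy 1.17.1, Python 3.11.15). The script was tested on simulated data.

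The text names the cadherins and Fgf15, all genes that passed, leading genes up to 12 per direction, up to 3 genes of each list and of the windows around the targeted genes, and interaction calls. Other genes are chosen after their values were seen. The members and the lists were chosen with earlier results of these data known. 4 listed symbols were not found. The alternatives were other filters, pseudocounts and scalings, no trend, all 4 groups in one fit, grouping by record, the replicate number as a block, Xist as covariate, a minimum fold change, no pseudogenes, other windows and leaving out each library.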

Additional observations from a re-analysis of the deposited data

Results flagged for a closer look

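In groups of 4 or 6 Fb libraries, 122 groups of values of the named genes were checked for a library far from the others, and 11 had one, while chance flags about 0.05 of groups. In TKO_Ex these were Rec8 in replicate 1, at 0.603 FPKM beside the next value of 0.244, Nkx2-2 in replicate 1 (3.86, next 1.76), Mcm4 in replicate 1 (84.4, next 89.3), Pard3 in replicate 4 (16.8, next 22.1) and Ddit4 in replicate 3 (15.5, next 21.3). In WT they were Fam107b in replicate 6 (22.7, next 15.9), Rec8 in replicate 1 (3.33, next 0.358), Tm9sf4 in replicate 2 (35, next 18.5), Gng12 in replicate 5 (31.0, next 17.3), Pcdh9 in replicate 4 (4.20, next 1.49) and Ddit4 in replicate 5 (82.2, next 33.8). The DKO_Ex group of 3 was not checked.

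The contrast differed between Mb and Fb for the pseudogenes Gm17538, with a fitted interaction of 3.10 (limma, adjusted p = 0.0024), and Gm20302, with −3.10 (adjusted p = 0.00155). Both fitted values rest on a group listed at 0 and depend on the pseudocount.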

How the results depend on the processing

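The count of 4 genes in the Fb became 1 without a filter, with a pseudocount of 5, without the trend and with Xist as covariate, 2 at a mean of at least 10 FPKM or at least 1 FPKM in every library, and 0 with all 4 groups in one fit (862 genes at an unadjusted p under 0.05) or by record (568). It was 1 without DKO_Ex replicate 1, 3 without DKO_Ex replicate 2 and 2 without each of the other libraries. The count of 17 in the Mb became 1 by record and without pseudogenes, 4 without the trend, 7 with all groups in one fit and 10 with Xist. It was 4 to 24 when a library was left out, and 13 without TKO_Ex replicate 3. The interaction count of 2 became 0 by record, without pseudogenes, with a pseudocount of 0.1 and at both stricter filters. It was 0 to 3 when a library was left out, and 3 without TKO_Ex replicate 3. With the replicate number as a block the counts were 0 in the Fb (678 at an unadjusted p under 0.05), 1 in the Mb and 0 for the interaction. Same-numbered TKO_Ex and DKO_Ex libraries deviated with correlations of −0.028 to 0.015, and Fb and Mb libraries of one group and number with 0.0088 to 0.117, and the Fb and Mb libraries of all 16 numbers matched in sex. The labels do not say that a number marks an embryo, so the block was kept as an alternative for the interaction.

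Grouping by record turned the sign of Cdh2 (−0.0001), Ctnna1 (−0.0422), Ebf3 (−0.16), Fgf15 (0.0084), Hps1 (0.0376), Nrarp (−0.11), Pard3 (−0.0044), Pld3 (−0.26), Plk1 (−0.0589), Sin3a (−0.0730) and Vim (−0.25). Cdh2 ran from −0.0114 (without TKO_Ex replicate 1) to 0.1654 (without TKO_Ex replicate 4). Cdh6 kept its direction throughout. The 4 genes that passed kept their direction but lost the threshold in 45 of their alternatives. The causes were not tested. At this depth, genes of low FPKM rest on few fragments and differences in them may not be detectable.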
